A study of Mus musculus with 2 samples.

Results

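Cx3cr1, Ccr2, Ccr1, Cxcr4, Ccrl2 and Cmklr1 encode receptors or receptor-like proteins that steer leukocytes along gradients of chemokines and chemerin. They were taken by symbol from the gene file of the single-cell matrices, where these 6 of 27998 genes each have 1 row. The cells were sorted as CD11b+/CD45+, the label's definition of microglia, from brains of adult C57BL/6J mice and profiled by droplet single-cell RNA sequencing (10x Genomics). The Repop D5 library came from 6 pooled mice. These had 14 days of PLX5622, which blocks the kinase receptor that keeps microglia alive, and were back on control diet for the last 5 days. The CD library came from 4 pooled mice on control diet throughout (19 days). No allele or transgene is named in the labels for either group, and the mice within a pool were not told apart.

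Chemokine receptors couple to inhibitory G proteins and move cells towards the source of their ligand. Cx3cr1 binds fractalkine, a membrane-bound chemokine of neurons, and is a classical marker of microglia, whereas Ccr2 binds Ccl2 and related ligands and is best known for bringing inflammatory monocytes out of the bone marrow. Because resident microglia are usually described as high in Cx3cr1 and without Ccr2, the pair is widely used to tell them from cells that enter from blood.

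Each group is a single library, so no comparison between groups has a test and the variation among mice is unknown. The 95% intervals reflect counting error alone. "Higher" and "lower" are said of Repop D5 against CD. The Repop D5 library held 585 barcodes, of which 553 were retained (11037921 UMIs in all, median 16226 per barcode, where a UMI or unique molecular identifier tags a single RNA molecule). The CD library held 609 barcodes, all of them retained (6055886 UMIs, median 5982). The libraries shared 1 barcode sequence. Levels are given as CPM, the UMIs of a gene scaled to the same total in every library or cluster and not divided by gene length, so they are set side by side within a gene and not between genes. The 10 microglia markers used to check the label (P2ry12, Tmem119 and others, none of them a member) each reached 10 CPM in both libraries and summed to 10558 CPM in Repop D5 and 22201 CPM in CD. Of the markers of other cells, those of neutrophils summed to 2180.5 CPM in Repop D5 and 13390 CPM in CD (12 genes), those of red blood cells to 2.45 CPM in Repop D5 and 1210 CPM in CD (4 genes), and those of T or NK cells to 0.362 CPM in Repop D5 and 0.826 CPM in CD (8 genes). Outside the clusters named below as other cell types, the red blood cell markers stood at 2.42 CPM in Repop D5 and 2214 CPM in CD.

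Clusters were made from all retained cells at once. The members, the other receptors and the ligands were left out of the variable genes, so that no receptor helped to define the clusters it is described in. Of the 12 clusters, 4 could be named from marker genes. Cluster 5 was border macrophage-like (0 Repop D5 and 107 CD cells), cluster 8 neutrophil-like (7 Repop D5 and 42 CD cells), cluster 10 monocyte-like (13 Repop D5 and 27 CD cells) and cluster 11 endothelial-like (2 cells of each library). Cluster 5 also held the microglia markers, at 20539 CPM against 2919 CPM of the border macrophage markers, with P2ry12 in 107 of 107 cells at 2768 CPM, against 2988 CPM over all CD cells. Since it held CD cells only, values outside the named clusters leave it out of CD alone, and those of the 6 receptors are also given with it kept where that ends a call or moves a value by more than 1.5 times. The 8 clusters without a name held 531 Repop D5 and 431 CD cells and each consisted almost wholly of 1 library. Clusters 1, 2, 3, 6 and 9 were of Repop D5 and were led by Ch25h and Nes (cluster 1), interferon-response genes (cluster 2), DNA replication genes (cluster 3), mitotic genes (cluster 6) and Tnf, Il1a and Ccl4 (cluster 9). Clusters 0, 4 and 7 were of CD and were led by Lag3 and Crybb1 (cluster 0), Slc1a3 and Adgrg1 (cluster 4) and Fos, Jun and Egr1 (cluster 7). They are called by number, since 1 or more of them had a leading gene that marks another cell type and none had a microglia marker among its leading genes.

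In the mouse genome 4 of the 6 genes lie on chromosome 9 (mm10, GENCODE M21). Ccr1 (chr9:123962124-123968692, minus strand) lies 133 kb from Ccr2 (chr9:124101950-124113557, plus strand). Ccrl2 is at chr9:111054486-111057519 and Cx3cr1 at chr9:119901616-120069879, both on the minus strand. The annotated span of Cx3cr1 overlaps 9 other genes, 3 of them on the same strand, but its transcript Cx3cr1-201 (chr9:120048683-120068296, 2 exons) overlaps none. Cxcr4 is at chr1:128588199-128592293 and Cmklr1 at chr5:113612354-113650426, both on the minus strand, and the span of Cmklr1 overlaps Gm15736 on the other strand. All 6 are annotated as protein-coding. How reads that match several genes were counted is not given in the sources used here.

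The promoters of Ccrl2, Ccr1 and Cx3cr1 are shown because the patterns of these genes differed, with Ccrl2 highest in the cytokine-rich cluster 9, Ccr1 higher in Repop D5 outside the named clusters and Cx3cr1 lower there. Each runs from 250 bases before to 50 bases after the RefSeq transcription start (GRCm38.p6) and is written 5′ to 3′ along the gene's own strand, with motif matches in capitals. They cover chr9:111057469-111057768 (Ccrl2, the first of 3 listed starts), chr9:123968643-123968942 (Ccr1) and chr9:120068247-120068546 (Cx3cr1), all on the minus strand.
Ccrl2: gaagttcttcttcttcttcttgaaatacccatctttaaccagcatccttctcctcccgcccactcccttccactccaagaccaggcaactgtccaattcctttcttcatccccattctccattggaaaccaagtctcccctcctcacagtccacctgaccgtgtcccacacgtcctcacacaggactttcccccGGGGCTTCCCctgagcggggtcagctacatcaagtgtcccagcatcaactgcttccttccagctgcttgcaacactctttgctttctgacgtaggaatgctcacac
Ccr1: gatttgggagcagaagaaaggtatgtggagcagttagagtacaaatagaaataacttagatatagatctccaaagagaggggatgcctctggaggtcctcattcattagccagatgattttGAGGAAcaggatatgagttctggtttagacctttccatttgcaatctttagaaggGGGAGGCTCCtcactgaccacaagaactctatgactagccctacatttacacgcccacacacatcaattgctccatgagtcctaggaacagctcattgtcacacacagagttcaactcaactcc
Cx3cr1: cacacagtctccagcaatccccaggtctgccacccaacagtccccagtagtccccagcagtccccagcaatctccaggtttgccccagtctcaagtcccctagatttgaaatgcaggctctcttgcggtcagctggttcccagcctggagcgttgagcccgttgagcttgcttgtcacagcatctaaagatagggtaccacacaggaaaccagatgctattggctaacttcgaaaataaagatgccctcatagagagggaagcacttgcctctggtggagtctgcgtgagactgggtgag
The capitals mark an NF-kB motif in Ccrl2 (GGGGCTTCCC, 56 bases before the start), an NF-kB motif in Ccr1 (GGGAGGCTCC, 74 bases before) and a PU box in Ccr1 (GAGGAA, 129 bases before). Both strands were searched for the PU box, the core of sites bound by the myeloid factor PU.1 (GAGGAA), the AP-1 motif (TGANTCA), the NF-kB motif and the interferon-stimulated response element (GAAANNGAAA). These forms were taken after a longer PU.1 form (AGGAAGT) and a narrower NF-kB form (GGGNNTTTCC) had matched no member. Of 32851 mouse promoters of this length, 28.3% held the PU box, 7.81% the AP-1 motif, 8.46% the NF-kB motif and 3.44% the interferon element. Cmklr1 also held a PU box, 98 bases before its start. The promoters of Cx3cr1, Ccr2 and Cxcr4 held none of the 4 motifs in these windows. The windows of starts 2 and 3 of Ccrl2 also held none. A match is a run of letters and not a site shown to be bound.

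Over every retained cell, Cx3cr1 was lower in Repop D5, Ccr1 stood just under a 2-fold higher level, Cmklr1 just under a 2-fold lower level and Ccrl2 near equality. A gene was called higher or lower when it had at least 10 CPM in 1 library, a ratio of Repop D5 over CD of at least 2 or at most 0.5, and an interval clear of 1. Of the 5 members that reached 10 CPM, 0 were higher, 1 (Cx3cr1) was lower and 4 were neither. Of all 8463 genes that reached it, 9.61% were higher and 23.8% lower. Over the members the median log2 ratio was -0.60, and over all genes it was -0.38. Outside the named clusters the split was different. There 2 of 5 members (Ccr2 and Ccr1) were higher and 2 (Cx3cr1 and Cmklr1) lower, against 10.4% and 23.6% of 8424 genes, and the median log2 ratios were 0.02 for the members and -0.37 for all genes. With cluster 5 kept, 1 member (Ccr1) was higher and 1 (Cx3cr1) lower, against 9.93% and 24.7% of all genes. A trimmed-mean scaling raises every log2 ratio by 0.46, and totals without mitochondrial and ribosomal protein genes raise it by 0.27. Of the 6 members Ccrl2 alone changed its direction under them, with ratios of 1.33 and 1.17.

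**Figure D1:**
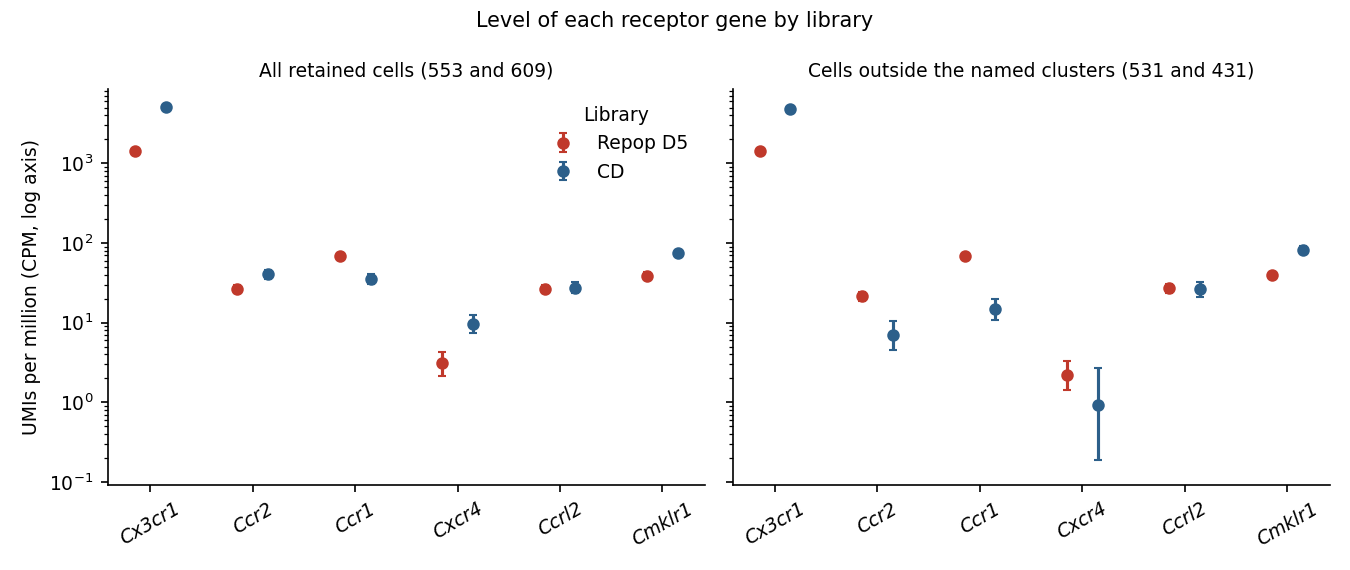
Level of each of the 6 receptor genes in CPM on a log axis, with Repop D5 left of CD, over every retained cell and over the cells outside the named clusters; bars on the points are exact 95% Poisson intervals. Cx3cr1 lies at 1428 CPM in Repop D5 and 5052 CPM in CD, and Ccr2 changes its order between the 2 cell sets.

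Cx3cr1 (ENSMUSG00000052336) had 15764 UMIs in Repop D5 and 30593 UMIs in CD, which is 1428 CPM (95% interval 1406 to 1451) in Repop D5 against 5052 CPM (4995 to 5109) in CD. The ratio was 0.283 (0.277 to 0.288), so the level was 3.54-fold lower in Repop D5. With the named clusters left out it was 1444 CPM in Repop D5 and 4835 CPM in CD, a ratio of 0.299 (0.292 to 0.305). Nearly every cell still carried the transcript. After each cell was thinned to 3000 UMIs, a Cx3cr1 UMI was found in 94.6% of 553 Repop D5 cells and 98.8% of 599 CD cells, and before thinning in 99.3% and 99.8%. The neutrophil-like cells, which should hold little Cx3cr1, gave 57.1% in Repop D5 (7 cells, median 5416 UMIs) and 92.7% in CD (41 cells, median 6387 UMIs). These barcodes held the microglia markers at 3936 CPM in Repop D5 and 15717 CPM in CD, so they give no clean background.

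The difference lay in the amount per cell. At 3000 UMIs per cell the median was 4 Cx3cr1 UMIs in Repop D5 (10th to 90th percentile 1 to 8) and 11 in CD (4 to 21). The highest Repop D5 cell had 15, and 142 of 599 CD cells (23.7%, exact 95% interval 20.4 to 27.3) had more than that. Of the Repop D5 cells, 15 of 553 (2.71%) reached the CD median. The libraries thus overlapped at the low end of CD and separated at the high end. The CD cells above 15 were spread unevenly over the clusters. They made up 59 of 119 cells of cluster 4 (49.6%) and 44 of 107 border macrophage-like cells (41.1%), against 27 of 230 cells of cluster 0 (11.7%), 3 of 69 of cluster 7 and 0 of 27 monocyte-like cells.

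Between clusters the order of Cx3cr1 levels put every Repop D5 cluster below every unnamed CD cluster. The highest level was in CD cluster 4 (6288 CPM, 6167 to 6412), followed by the border macrophage-like CD cells (5748, 5645 to 5853), the neutrophil-like CD barcodes (5025, 4837 to 5219), cluster 0 (3597, 3490 to 3707) and cluster 7 (2950, 2790 to 3118). None of these intervals touch. The Repop D5 clusters followed in a narrow band, with the mitotic cluster 6 at 1583 CPM (1536 to 1631) and the replicating cluster 3 at 1560 CPM (1517 to 1604), which do not differ beyond counting error. The monocyte-like CD cells had 1532 CPM (1361 to 1718), inside that band. Clusters 9 (1366 CPM, 1290 to 1444), 2 (1285, 1229 to 1342) and 1 (1269, 1224 to 1315) came next, each with an interval that overlaps its neighbour's. The monocyte-like Repop D5 cells had 986 CPM (859 to 1126) and the 7 neutrophil-like Repop D5 cells 336 CPM (199 to 531). At 3000 UMIs per cell the cluster medians were 4 or 5 UMIs in the unnamed Repop D5 clusters and 10, 15 and 9 in CD clusters 0, 4 and 7.

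The decline of Cx3cr1 was smaller than that of P2ry12, the purinergic receptor of ramified microglia. Outside the named clusters the Repop D5 cells held 2.88 Cx3cr1 UMIs per P2ry12 UMI (2.79 to 2.97), against 1.43 in CD (1.39 to 1.46). Per UMI of Tmem119, a surface protein of microglia, they held 1.74 (1.69 to 1.78), against 2.05 in CD (1.99 to 2.11). That order was not shared by all cells. In 4 groups of equal size by depth, from the shallowest to the deepest, the Repop D5 cells held 1.56, 1.46, 1.65 and 1.94 Cx3cr1 UMIs per Tmem119 UMI and the CD cells 1.40, 1.41, 1.52 and 2.55. The unnamed Repop D5 clusters had between 1.48 and 1.89, against 1.52, 2.57 and 1.40 in CD clusters 0, 4 and 7. A ratio of this kind shows unequal change between genes and not that any of them stayed the same.

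Depth moved with these values. When the cells outside the named clusters were cut by UMI count into 4 equal groups per library, Cx3cr1 in Repop D5 was at 1320, 1343, 1346 and 1562 CPM from the shallowest to the deepest group. In CD it was at 3543, 3172, 3337 and 6149 CPM. The deepest CD group, from 8332 UMIs per cell upwards, thus stood apart from the other CD groups in Cx3cr1, but not in P2ry12, which was at 3887, 3640, 3306 and 3240 CPM in the same order. Cluster 4 had a median of 11108 UMIs and cluster 0 one of 4203. Among CD barcodes of 5000 to 15000 UMIs, Cx3cr1 had 5423 CPM (5228 to 5624) in cluster 4 and 3746 CPM (3585 to 3912) in cluster 0, while P2ry12 had 3545 CPM (3387 to 3708) in cluster 4 and 3320 CPM (3169 to 3477) in cluster 0. In that depth window the ratio of Repop D5 over CD over every class was 0.325.

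**Figure D2:**
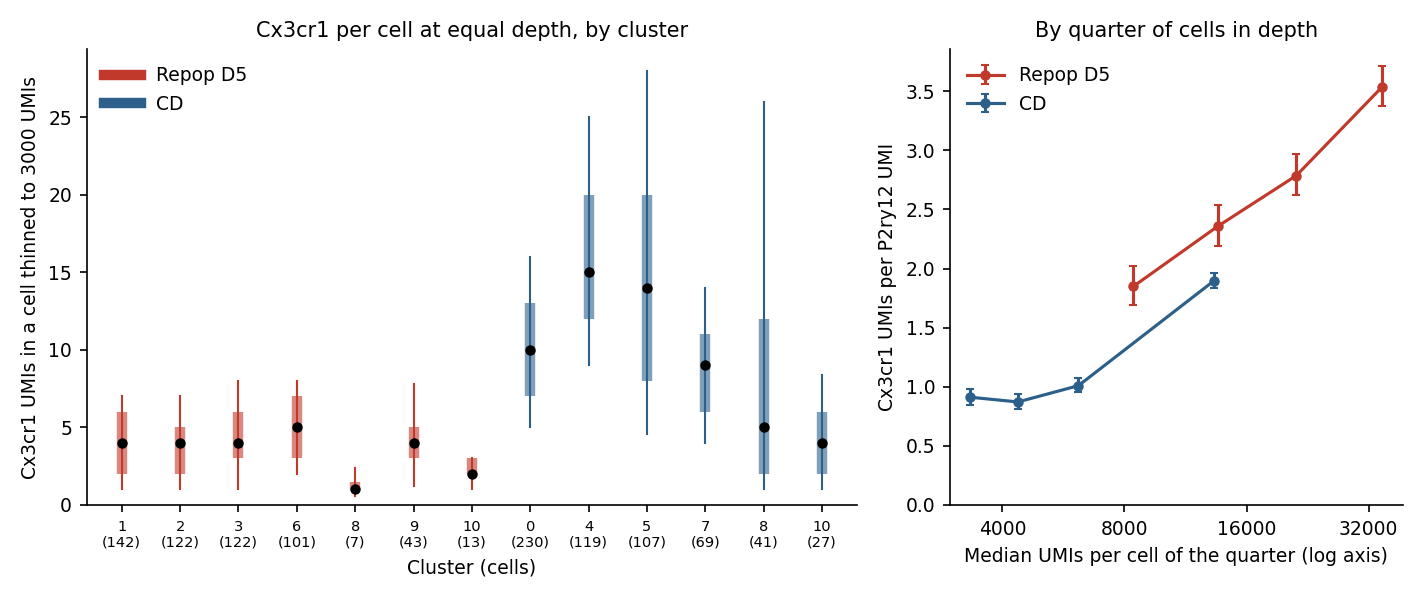
Left, Cx3cr1 UMIs per cell after thinning to 3000 UMIs in each cluster, as median, 25th to 75th and 10th to 90th percentile; right, Cx3cr1 UMIs per P2ry12 UMI in 4 groups of cells ordered by depth, outside the named clusters, with 95% intervals. Cluster medians of the unnamed Repop D5 clusters are 4 or 5 and those of CD clusters 0, 4 and 7 are 10, 15 and 9; in the deepest group the quotient is 3.54 in Repop D5 and 1.90 in CD.

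Ccr2 (ENSMUSG00000049103) had 291 UMIs in Repop D5 and 245 UMIs in CD, or 26.4 CPM (23.4 to 29.6) against 40.5 CPM (35.5 to 45.9), a ratio of 0.652 (0.548 to 0.776) that passed neither call. The libraries differed in which cells held these UMIs. The monocyte-like cluster held 20.3% of the Repop D5 Ccr2 UMIs and 54.3% of those of CD. The cells outside the named clusters held 79.7% in Repop D5 and 9.39% in CD. There Ccr2 was at 21.6 CPM (18.9 to 24.5) in Repop D5 and 7.07 CPM (4.48 to 10.6) in CD, 3.05-fold higher (1.98 to 4.91). This call depends on the clustering. With cluster 5 kept it was 21.6 CPM in Repop D5 and 18.6 CPM in CD, a ratio of 1.16 (0.912 to 1.48) that passed neither call. At a finer resolution (2 in place of 1) a cluster of 22 CD cells and 2 Repop D5 cells, rich in MHC class II genes and Ccr2, was not named. The CD cells outside the named clusters rose from 431 to 499, so other CD cells lost their name too. The level outside the named clusters then became 21.8 CPM in Repop D5 and 36.3 CPM in CD. The shares of the monocyte-like cluster depend on the resolution too. The unnamed cluster rich in MHC class II genes held 83 CD and 3 Repop D5 Ccr2 UMIs. The cluster still named monocyte-like held 50 CD and 56 Repop D5 UMIs.

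Most barcodes held no Ccr2 UMI, and a few held many. In Repop D5, 456 of 553 barcodes had 0, 64 had 1 and 28 had 3 or more, with 25 in the highest. In CD, 536 of 609 had 0, 33 had 1 and 23 had 3 or more, with 17 in the highest. The 10 barcodes richest in Ccr2 held 45.7% of all Ccr2 UMIs in Repop D5 and 48.6% in CD. Thus in both libraries the level of the gene was set by a small number of cells. Of the 28 Repop D5 barcodes with 3 or more, 20 lay outside the named clusters and 8 in the monocyte-like cluster. Of the 23 in CD, 0 lay outside the named clusters, 15 were monocyte-like, 6 border macrophage-like and 2 neutrophil-like. Repop D5 barcodes were deeper. At 3000 UMIs per cell a Ccr2 UMI was found outside the named clusters in 4.52% of Repop D5 cells (24 of 531, 2.92 to 6.65). In CD cells the share was 1.90% (8 of 422, 0.822 to 3.70), and the intervals overlap. Unthinned, the shares were 16.2% in Repop D5 and 4.41% in CD. Over all retained cells the thinned shares were 5.61% in Repop D5 and 6.01% in CD, and in neutrophil-like cells 0 of 7 in Repop D5 and 2 of 41 in CD.

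The 20 Repop D5 barcodes outside the named clusters with 3 or more Ccr2 UMIs lay in the mitotic cluster 6 (10 barcodes), the interferon-led cluster 2 (7) and the replicating cluster 3 (3), with 0 in clusters 1 and 9. They all held Cx3cr1, at 1377 CPM, against 1444 CPM in the 445 Repop D5 barcodes outside the named clusters that had no Ccr2 UMI. Their level of Plac8, a gene of blood monocytes, was 73.7 CPM, with 13 of the 20 at 0, against 3554 CPM in the 8 monocyte-like Repop D5 barcodes with 3 or more Ccr2 UMIs. The 445 without Ccr2 had 14.4 CPM of Plac8. Ly6c2, the Ly6C antigen of inflammatory monocytes, was at 10.5 CPM in the 20, 776 CPM in the 8 and 5.65 CPM in the 445. Absence of these 2 genes did not set the 20 apart from all monocyte-like barcodes rich in Ccr2. Of the 15 such CD barcodes with 3 or more Ccr2 UMIs, 10 held no Plac8 and 9 no Ly6c2, although their levels were 2043 CPM and 1734 CPM. Genes of border macrophages were higher in the 20 than in the 445, with Ms4a7 at 58.7 CPM against 16.5 CPM and Mrc1 at 42.1 CPM against 10.5 CPM. The monocyte markers summed to 283 CPM in the 20 and 169 CPM in the 445, and the border macrophage markers to 507 CPM in the 20 and 245 CPM in the 445. The microglia markers summed to 7431 CPM in the 20, 6802 CPM in the 8 and 11171 CPM in the barcodes without Ccr2. The richest barcode of all, in cluster 6, held 25 Ccr2, 36 Cx3cr1 and 16 Mki67 UMIs of 26922 and 0 of Plac8 and Ly6c2. The 20 were picked by their Ccr2, so the Ccr2 level in them is no result. The cut of 3 was in unthinned UMIs, and the 20 were deeper, with a median of 24923 UMIs against 15739 in the 445. The part of depth in their clusters and marker levels was not tested.

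**Figure D3:**
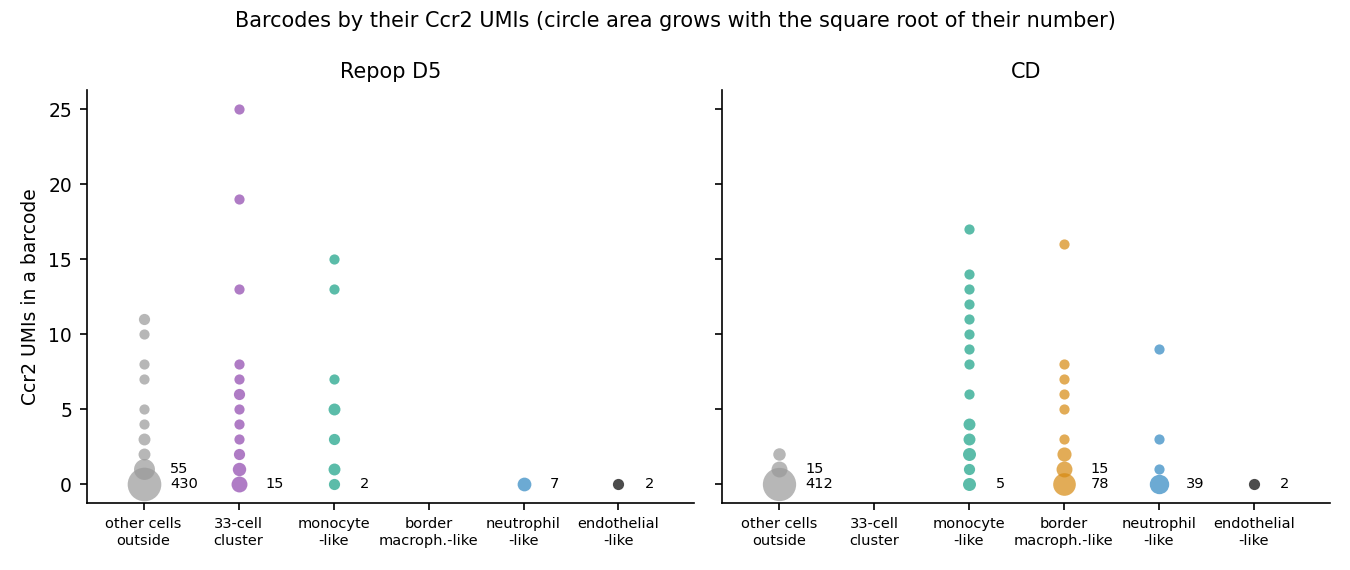
Ccr2 UMIs in a barcode, from 0 up, by class of cells for Repop D5 (left) and CD (right), where each circle stands for the barcodes that hold that many UMIs and the numerals beside circles give their count at 0 and wherever it passes 9. In Repop D5, 20 barcodes outside the named clusters hold 3 or more, with 25 in the highest, and in CD 0 do.

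A finer clustering drew together 10 of the 20 Repop D5 barcodes with 3 or more Ccr2 UMIs outside the named clusters. At resolution 2 a cluster of 33 Repop D5 cells, 24 of them from cluster 2 and 9 from cluster 6, had Ccr2 among its leading genes, with Cd93, Clec12a, Cbr2 and Ms4a7, of which the last 2 are known from macrophages at the borders of the brain. Ccr2 was at 185 CPM (152 to 224) in it and at 12.4 CPM (10.3 to 14.7) in the other 498 Repop D5 cells outside the named clusters, and 18 of the 33 cells held a UMI. Ccr1 was at 112 CPM (86.2 to 143) in these cells and 66.9 CPM (61.9 to 72.1) in the rest. Cx3cr1 was at 978 CPM (898 to 1062) against 1470 CPM (1447 to 1494), P2ry12 at 282 CPM against 514 CPM, Cmklr1 at 19.2 CPM (9.61 to 34.4) against 41.0 CPM (37.1 to 45.1), and Ccrl2 at 5.25 CPM (1.08 to 15.3) against 28.1 CPM (24.9 to 31.5). Without the 33 cells the ratio of Ccr2 outside the named clusters was 1.75 (1.12 to 2.86). This set was chosen after its values were seen. Border macrophage markers summed to 1354 CPM in the 33 cells, with Mrc1 at 163 CPM, and to 259 CPM over all Repop D5 cells outside the named clusters. Microglia markers summed to 6308 CPM in the 33 cells and 10678 CPM over those cells. Monocyte markers outside the named clusters summed to 193 CPM over 12 genes in Repop D5, with 0 genes at 0, and to 72.3 CPM in CD, with 1 gene at 0, and the part of these cell types in the Ccr2 result was not tested.

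Within the monocyte-like cluster Ccr2 was lower in Repop D5, at 268 CPM (204 to 346) in 13 cells, against 698 CPM (584 to 827) in 27 CD cells, a ratio of 0.384 (0.278 to 0.526). Ccr2 was among the leading genes of this cluster. The cells of the 2 libraries in it were not alike. Plac8 was at 2630 CPM in Repop D5 and 1222 CPM in CD, whereas H2-Aa, an MHC class II gene of antigen-presenting cells, was at 1544 CPM in Repop D5 and 8036 CPM in CD. Cx3cr1 was at 986 CPM in Repop D5 and 1532 CPM in CD, a ratio of 0.643 (0.537 to 0.770). At resolution 2 the cluster split into 1 with Plac8 and Ly6c2 (11 Repop D5 and 5 CD cells) and 1 with MHC class II genes (2 Repop D5 and 22 CD cells). Over both libraries Ccr2 was at 442 CPM in the cluster with Plac8 and 503 CPM in the other. In the cluster with Plac8 it was at 288 CPM (218 to 375) in Repop D5 and 1092 CPM (810 to 1440) in CD. Monocyte markers summed to 6973 CPM in the cluster with Plac8 and 222 CPM in the cluster with MHC class II genes. Most CD cells called monocyte-like here thus held few monocyte markers. The part of this change of mix in the Ccr2 ratio was not tested.

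Since nearly every barcode held Cx3cr1, nearly every barcode with Ccr2 held it as well. Without thinning, 95 of 553 Repop D5 barcodes held both, 454 held Cx3cr1 alone, 2 held Ccr2 alone and 2 held neither. In CD, 73 of 609 barcodes held both, 535 held Cx3cr1 alone, 0 held Ccr2 alone and 1 held neither. Microglia markers were also present in the barcodes of the named clusters, so a barcode with both transcripts is not by itself a cell that makes both.

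Across clusters, Ccr2 was highest in the monocyte-like cells of both libraries. The interferon-led Repop D5 cluster 2 followed (50.9 CPM, 40.3 to 63.4), then the border macrophage-like CD cells (36.8, 29.0 to 46.0), the mitotic Repop D5 cluster 6 (32.6, 26.2 to 40.2) and the neutrophil-like CD barcodes (24.3, 12.9 to 41.6), whose neighbouring intervals overlap. Cluster 3 had 12.4 CPM (8.80 to 16.9) and cluster 9 had 11.1 CPM (5.32 to 20.4), both Repop D5. CD clusters 4 (8.03, 4.28 to 13.7) and 0 (7.61, 3.48 to 14.4), Repop D5 cluster 1 (6.20, 3.47 to 10.2) and CD cluster 7 (2.34, 0.0592 to 13.04) were at the low end and did not differ beyond counting error. The intervals of Repop D5 clusters 3 and 9 overlap those of all 3 unnamed CD clusters too. By UMIs, only 2 and 6 of the unnamed Repop D5 clusters lay clear of them. These intervals treat UMIs as independent, but the highest cell held 25 of 89 in cluster 6 and 19 of 79 in cluster 2. By share of cells after thinning, neither lay clear. A Ccr2 UMI was found in 7.38% of cluster 2 (3.43 to 13.5) and 6.93% of cluster 6 (2.83 to 13.8). CD clusters 4, 0 and 7 had 2.52% (0.523 to 7.19), 1.74% (0.476 to 4.39) and 0% (0 to 5.21), with overlapping intervals.

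Ccr1 (ENSMUSG00000025804) binds Ccl3, Ccl5 and several related ligands and is carried by monocytes, macrophages and neutrophils. It had 760 UMIs in Repop D5 and 214 UMIs in CD, or 68.9 CPM (64.0 to 73.9) against 35.3 CPM (30.8 to 40.4), a ratio of 1.95 (1.67 to 2.28). Outside the named clusters it was higher, at 69.3 CPM (64.4 to 74.4) in Repop D5 and 14.8 CPM (10.9 to 19.6) in CD, 4.69-fold (3.50 to 6.42), and with cluster 5 kept in CD it was 2.29-fold higher (1.93 to 2.73). The named CD clusters had more of it, with 54.6 CPM in the border macrophage-like cells (45.0 to 65.7) and 86.0 CPM in the neutrophil-like barcodes (63.0 to 115). Every unnamed Repop D5 cluster lay above every unnamed CD cluster. Clusters 1 (88.0, 76.6 to 101) and 2 (86.9, 72.9 to 103) were highest and could not be told apart, followed by clusters 6 (62.7, 53.7 to 72.8), 3 (57.8, 49.7 to 66.8) and 9 (48.8, 35.5 to 65.6). CD clusters 4, 7 and 0 had 16.1, 14.0 and 13.5 CPM with overlapping intervals. At 3000 UMIs per cell, a Ccr1 UMI was found outside the named clusters in 16.6% of Repop D5 cells and 3.32% of CD cells, and over all retained cells in 16.6% and 8.01%. Unthinned, the shares over all retained cells were 50.6% in Repop D5 and 19.9% in CD. The border macrophage markers outside the named clusters summed to 259 CPM in Repop D5 and 572 CPM in CD, neutrophil markers to 928 CPM in Repop D5 and 2600 CPM in CD, and monocyte markers to 193 CPM in Repop D5 and 72.3 CPM in CD. Their part in the Ccr1 result was not tested.

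Ccrl2 (ENSMUSG00000043953) is an atypical receptor that binds chemerin and presents it to neighbouring cells without signalling itself, and it is induced in macrophages by inflammatory stimuli. Its level differed little between the libraries, with 295 UMIs and 26.7 CPM (23.8 to 29.96) in Repop D5 against 167 UMIs and 27.6 CPM (23.6 to 32.1) in CD, a ratio of 0.969 (0.799 to 1.18). Within Repop D5 it was uneven. In Repop D5 cluster 9, which was led by Tnf, Il1a and Il1b, it reached 111 CPM (90.3 to 135), with a UMI in 28 of 43 cells. In the other unnamed Repop D5 clusters it lay between 14.3 CPM (cluster 6) and 25.1 CPM (cluster 2). In CD the highest level was in cluster 7, led by Fos, Jun and Egr1, at 44.5 CPM (26.8 to 69.4), against 24.5 CPM (16.4 to 35.2) in cluster 0 and 23.5 CPM (16.6 to 32.2) in cluster 4, with overlapping intervals. Cluster 9 held 43 of 553 Repop D5 cells but 100 of the 295 Ccrl2 UMIs. The gene was among the leading genes of cluster 9 although it had no part in the clustering. The genes it was clustered on move with it, so the level is a description of that cluster.

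**Figure D4:**
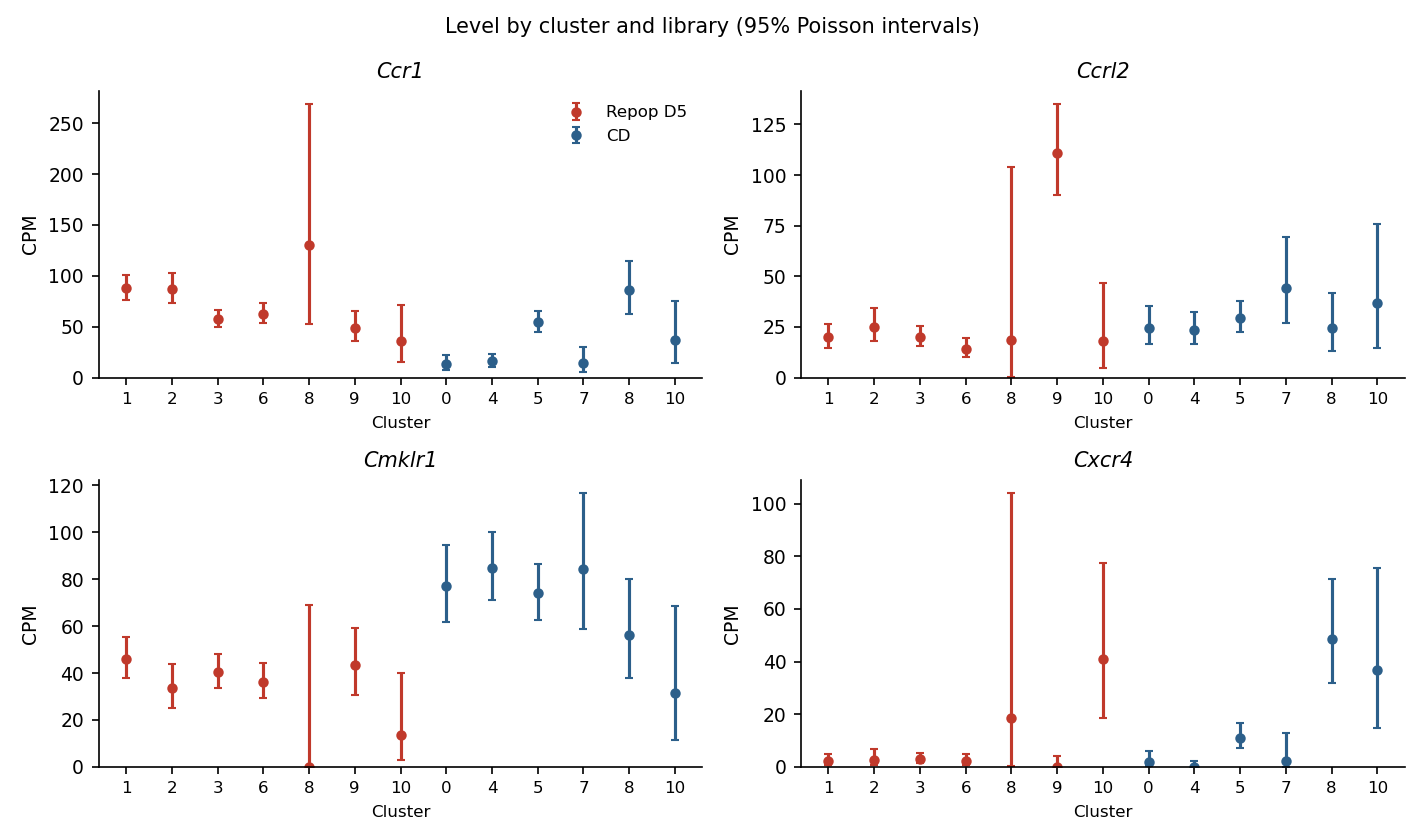
Levels of Ccr1, Ccrl2, Cmklr1 and Cxcr4 in CPM in each cluster of at least 5 cells, Repop D5 clusters left of CD clusters, with exact 95% Poisson intervals. Ccr1 is at 48.8 to 88.0 CPM in the unnamed Repop D5 clusters and 13.5 to 16.1 CPM in the unnamed CD clusters, Ccrl2 peaks at 111 CPM in cluster 9, and Cxcr4 is at or above 11.1 CPM in the named clusters alone.

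Cmklr1 (ENSMUSG00000042190) is the signalling receptor for chemerin and draws macrophages and dendritic cells. It had 431 UMIs in Repop D5 and 454 UMIs in CD, or 39.0 CPM (35.4 to 42.9) against 74.97 CPM (68.2 to 82.2), a ratio of 0.521 (0.455 to 0.596). Outside the named clusters it was lower, at 39.8 CPM (36.1 to 43.8) in Repop D5 and 81.5 CPM (72.0 to 91.9) in CD, a ratio of 0.488 (0.418 to 0.571). With cluster 5 kept the ratio was 0.506 (0.442 to 0.581), which passed neither call. The unnamed clusters of a library had similar levels. The unnamed Repop D5 clusters lay between 33.5 CPM (cluster 2) and 45.9 CPM (cluster 1), and the unnamed CD clusters between 76.9 CPM (cluster 0) and 84.6 CPM (cluster 4). The monocyte-like cells had 13.6 CPM (2.81 to 39.8) in Repop D5 and 31.5 CPM (11.6 to 68.5) in CD, and the 33 Repop D5 cells rich in Ccr2 had 19.2 CPM. A trimmed-mean scaling moved the ratio over every cell to 0.715, with no change in direction. At 3000 UMIs per cell a Cmklr1 UMI was found in 11.2% of Repop D5 cells and 18.9% of CD cells, whereas without thinning the order was the other way, 50.6% in Repop D5 and 41.5% in CD. Rarres2, the chemerin gene, had 1 UMI in Repop D5 and 0 in CD.

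Cxcr4 (ENSMUSG00000045382), the receptor for Cxcl12 that holds leukocytes in the bone marrow, was scarce. It had 34 UMIs in Repop D5 and 59 UMIs in CD, or 3.08 CPM (2.13 to 4.30) against 9.74 CPM (7.42 to 12.6), a ratio of 0.316 (0.201 to 0.490) below the minimum set for a call. Beyond the named clusters it had 24 UMIs in Repop D5 and 3 in CD, a ratio of 2.42 whose interval of 0.735 to 12.5 includes 1. With cluster 5 kept the ratio was 0.457 (0.251 to 0.827), still under the minimum. The UMIs in CD thus lay mostly in the named clusters and those in Repop D5 mostly outside them, but the levels were highest in the named clusters. The neutrophil-like CD barcodes had 48.6 CPM (31.8 to 71.2), the monocyte-like cells 40.9 CPM (18.7 to 77.6) in Repop D5 and 36.7 CPM (14.8 to 75.7) in CD, and the border macrophage-like CD cells 11.1 CPM (7.05 to 16.7). The unnamed clusters stood between 0 and 2.86 CPM, with 0 UMIs in Repop D5 cluster 9 and CD cluster 4. The 7 neutrophil-like Repop D5 cells held 1 UMI.

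The other receptors of the family were lower or uncalled. Of 28 other chemoattractant receptor genes, 8 reached 10 CPM. Of these 0 were higher, 6 lower and 2 neither, against 9.61% higher and 23.8% lower among all genes. Their median log2 ratio was -1.93, and that of all genes -0.38. Ptafr, the receptor for platelet-activating factor, had 14.9 CPM in Repop D5 and 158 CPM in CD (ratio 0.0940, 0.0792 to 0.111), and C5ar2, the second receptor for complement C5a, had 11.3 CPM in Repop D5 and 73.3 CPM in CD (0.154, 0.126 to 0.189). S1pr1, a receptor for the lipid sphingosine 1-phosphate, had 9.33 CPM in Repop D5 and 42.3 CPM in CD (0.221, 0.174 to 0.279). Ptafr, C5ar2 and S1pr1 were also called lower outside the named clusters, where 6 of the 28 reached 10 CPM. Cxcr2, the receptor by which neutrophils follow Cxcl ligands, had 3.62 CPM in Repop D5 and 15.03 CPM in CD (0.241, 0.162 to 0.353), and Fpr2, a formyl peptide receptor, 2.08 CPM in Repop D5 and 13.05 CPM in CD (0.160, 0.0958 to 0.257). Without the named clusters both were under 10 CPM, with ratios of 0.945 (0.413 to 2.42) and 1.31 (0.360 to 7.17). C3ar1 and C5ar1, the receptors for complement C3a and C5a, passed neither call, with ratios of 0.668 (0.616 to 0.724) and 1.07 (0.990 to 1.15). The remaining 20 genes, among them Ccr7, Cxcr3 and Ackr3, had fewer than 10 CPM in both libraries.

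The ligand genes went both ways. Of 14 listed ligand genes, 13 had 1 row in the gene file and 10 reached 10 CPM. Of these 3 were higher, 4 lower and 3 neither, against 9.61% higher and 23.8% lower among all genes. Their median log2 ratio was -0.47, close to the -0.38 of all genes. Ccl12, a mouse ligand of Ccr2, had 970 CPM in Repop D5 and 278 CPM in CD, 3.49-fold higher (3.31 to 3.67). Mif, which can bind Cxcr4, had 505 CPM in Repop D5 and 123 CPM in CD (4.10-fold, 3.796 to 4.43), with the reservation that pseudogene copies make its count uncertain. Ccl5, a ligand of Ccr1, had 11.4 CPM in Repop D5 and 3.47 CPM in CD (3.29-fold, 2.06 to 5.50). A few cells held most of it. Of its 126 Repop D5 UMIs, 43 were in 4 cells of cluster 2 and 51 in 4 cells of cluster 9, while clusters 1, 3 and 6 had 2.89, 4.44 and 4.03 CPM. Among the lower genes, Ccl7, another ligand of Ccr2, had 30.5 CPM in Repop D5 and 313 CPM in CD (ratio 0.0974, 0.0865 to 0.109). Outside the named clusters it had 31.3 CPM in Repop D5 and 58.7 CPM in CD, and the ratio of 0.533 (0.445 to 0.640) passed neither call. Ccl8, a ligand of Ccr2 in people whose mouse form acts on Ccr8, had 0 UMIs in Repop D5 and 134 UMIs (22.1 CPM) in CD, at least 81.4-fold lower against a floor of 3 counts over the Repop D5 library. Without the named clusters Ccl8 was under the minimum for a call, with 0 UMIs in Repop D5 and 31 UMIs (9.53 CPM) in CD. Ccl6 and Ccl9, ligands of Ccr1, had ratios of 0.367 (0.335 to 0.401) and 0.319 (0.292 to 0.349). Ccl3 and Ccl4, with ratios of 0.656 (0.603 to 0.714) and 0.796 (0.738 to 0.859), passed neither call, and the order of Ccl4 turned outside the named clusters (1.08) and with the trimmed-mean scaling. Outside the named clusters 4 of 9 measured ligands were higher and 2 lower, against 10.4% and 23.6% of all genes. With cluster 5 kept, 3 ligands were higher and 4 lower, against 9.93% and 24.7% of all genes.

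The border macrophage-like CD cells were rich in ligands of Ccr2. Ccl2 had 349 CPM in Repop D5 and 276 CPM in CD over every cell, a ratio of 1.27 (1.20 to 1.34), but 350 CPM in Repop D5 and 54.4 CPM in CD outside the named clusters, 6.44-fold higher (5.54 to 7.53). The border macrophage-like CD cells had 668 CPM of Ccl2 and 745 CPM of Ccl7. They held 1381 of the 1669 CD Ccl2 UMIs, so the 6.44-fold value rests on leaving them out of CD. CD clusters 0, 4 and 7 had 54.9, 49.4 and 58.5 CPM of Ccl2. Of the Repop D5 clusters, cluster 9 had 661 CPM and cluster 1 had 531 CPM of Ccl2, against 297, 241 and 191 CPM in clusters 3, 6 and 2. Cluster 2, the unnamed cluster with the most Ccr2, was thus the unnamed Repop D5 cluster with the least Ccl2, and cluster 1 had little Ccr2 and much Ccl2. Ccl12 was at 626 to 1204 CPM in the unnamed Repop D5 clusters and 113 to 193 CPM in the unnamed CD clusters. Cx3cl1, the fractalkine gene, had 6 UMIs in Repop D5 and 9 in CD, and Cxcl12 had 8 in Repop D5 and 29 in CD, so both were close to absent from the sorted cells.

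**Figure D5:**
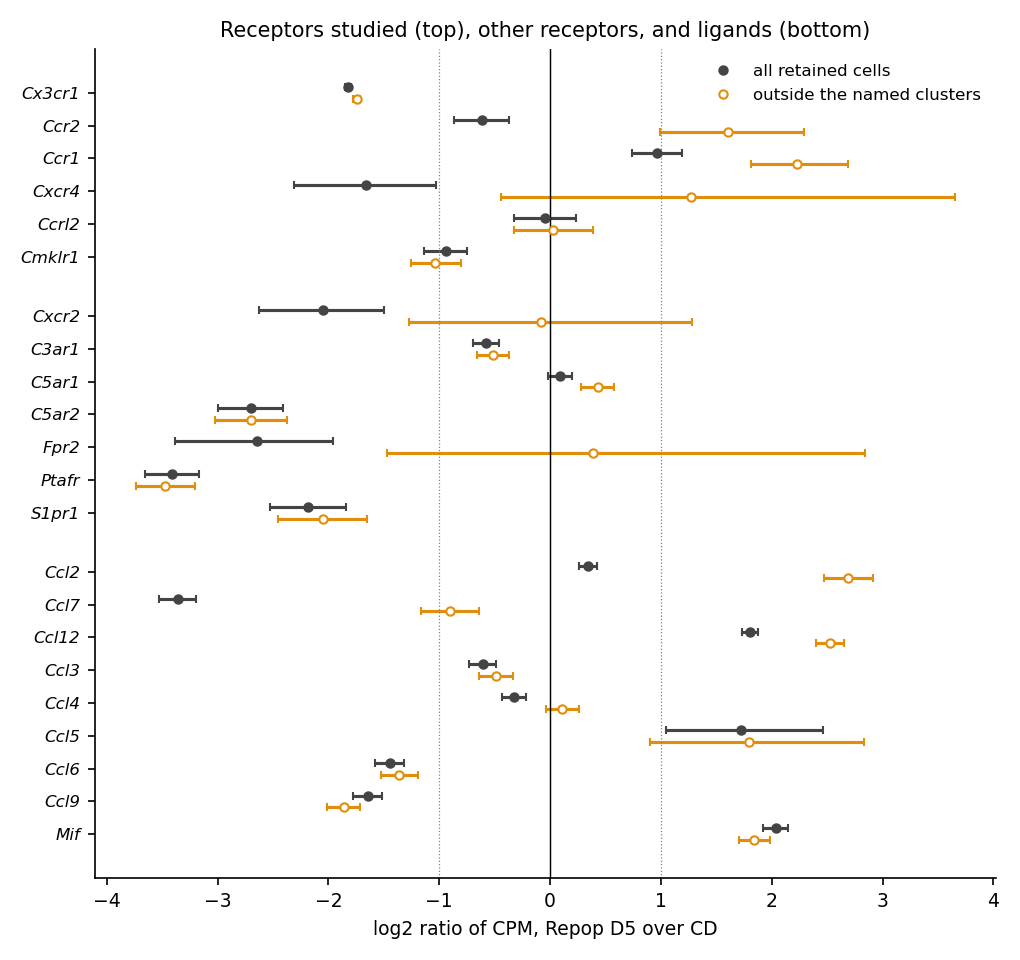
Log2 ratio of CPM, Repop D5 over CD, with 95% intervals for the members and for other receptors and ligands that reached 10 CPM, over every retained cell and outside the named clusters; Ccl8, at 0 UMIs in Repop D5, is not drawn. Ccr2, Ccr1 and Ccl2 lie further to the right outside the named clusters, where their ratios before the log are 3.05, 4.69 and 6.44.

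The signalling genes below the receptors were called about as often as other genes or less. Of 33 genes of G protein subunits, receptor kinases, arrestins, RGS proteins (which switch G proteins off) and effectors, 31 reached 10 CPM. Of these 0 were higher, 6 lower and 25 neither, where 9.61% of all genes were higher and 23.8% lower, and the median log2 ratio was -0.32. With the trimmed-mean scaling the split was 3 higher and 3 lower, against 18.5% and 10.2% of all genes. Of the 31 directions, 9 turned with a scaling. The highest ratios were those of Gng5 (1.79, 1.71 to 1.87), a G protein gamma subunit with a pseudogene copy, and Rac2 (1.64, 1.53 to 1.75), a small GTPase of leukocyte migration. The lowest was Adrbk2, a receptor kinase, with 2.63 CPM in Repop D5 and 33.4 CPM in CD (ratio 0.0788, 0.0514 to 0.117). Rgs18 was next, with 3.62 CPM in Repop D5 and 17.2 CPM in CD, but its ratio was 0.873 (0.397 to 2.12) outside the named clusters. Gnai2, the main inhibitory G protein alpha subunit of leukocytes, had 718 CPM in Repop D5 and 645 CPM in CD (1.11, 1.07 to 1.16), and Rgs10, an RGS protein of microglia, 731 CPM in Repop D5 and 1450 CPM in CD (0.504, 0.489 to 0.520). Rgs2, Pik3cg, Pik3r5 and Plcb3 were the other genes called lower, with ratios between 0.288 and 0.471.

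The receptors were also set against division within Repop D5. The 531 cells outside the named clusters were divided by the UMIs they held, after thinning, of 18 genes of the G2 and M phases. Cx3cr1 was at 1279 CPM (1221 to 1339) in 84 cells with 0, 1408 CPM (1378 to 1439) in 303 cells with 1 to 4 and 1566 CPM (1525 to 1607) in 144 cells with 5 or more. Cx3cr1 was thus higher in cells with more division RNA, while P2ry12 had 536, 515 and 465 CPM in the same order. Ccr1 had 81.2, 74.1 and 56.8 CPM. Ccr2 followed no order, at 41.7 CPM (31.7 to 53.7), 14.8 CPM (11.8 to 18.3) and 24.5 CPM (19.7 to 30.2). Ccrl2 and Cmklr1 had overlapping intervals in all 3 groups. Median depth was higher as well, with 13966, 15772 and 22230 UMIs per cell, and its part in these orders was not tested.

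The genes whose levels were most like each member's were found over the 11 cluster-by-library groups of at least 20 cells, by the Pearson correlation of log2(CPM + 1) among 4065 genes at 50 CPM or more in 1 group. The groups share 2 libraries, so a difference between libraries enters every value. For Cx3cr1 the first was Mef2a, a transcription factor (r = 0.98), followed by Luc7l2, Tgfbr1 (a receptor for TGF-beta), Peli1 and Tfe3. For Ccr2 it was Ccnd2, cyclin D2 (0.96), then Fgl2, Ahnak, St8sia4 and Oasl2. For Ccr1 it was Ehd1 (0.91), then Cfp (properdin), Cox14, Iqgap1 and AB124611. For Ccrl2 it was Arl5c (0.91), then Cd83, Dusp2, Nfkbid and Ppp1r15a. For Cmklr1 it was Fam110a (0.99), then Prkca, Tmem119 and Tspan3.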

How the data were processed

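The deposited files hold UMI counts per gene and barcode for each library, which the authors made with Cell Ranger 2.1.0 on mm10, per the submitters' processing notes. The annotation used and the rule that picked the barcodes are not given in the sources used here. Every gene row was used. A pooled matrix of both libraries, in which the Repop D5 counts came to 96.8% of those in the library's own matrix, served as an alternative.

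Barcodes were retained when they showed 500 genes or more and when mt- genes made up less than 10% of their UMIs. Counts were scaled to 10000 per cell and logged in scanpy 1.11.5 (Python 3.11.15). A neighbour graph of 15 neighbours, built on 30 principal components of 2000 variable genes, was partitioned by the Leiden method (leidenalg 0.10.2, resolution 1). Libraries were not corrected against each other, and doublets were kept. A cluster was named when at least 2 of its 10 leading genes were markers of 1 class and at least 3 markers of that class reached 50 CPM at 4-fold over other cells. This rule was set after the clusters were seen.

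UMIs were summed over cells, divided by the summed total and multiplied to CPM. Intervals are exact and at 95%, from Poisson counts for levels, from the binomial split of the summed counts for ratios and by Clopper-Pearson for shares (scipy 1.17.1). Shares come from the median of 20 seeded draws of 3000 UMIs per cell, and 10 shallower CD cells were left out. List medians are of the log2 ratio, Repop D5 over CD, after 1 CPM was added to each level. A floor of 3 counts is 0.272 CPM in Repop D5 and 0.495 CPM in CD. The trimmed-mean scaling is from edgeR 4.0.16, used for the scaling factors and for no test. The ratio and the calls were tried on simulated Poisson counts drawn from the summed CD levels. Those counts carry no clumping of UMIs by cell, such as Ccr2 showed, so the trial does not cover it.

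The genes named are all members, the other receptors and ligands at 10 CPM in 1 library, and of the signalling genes the 2 highest, 2 lowest and 2 most abundant. Ccl19 has 2 rows in the gene file and was left out. Some genes that these rules name are not reported here, and the counts over lists include them. The members, lists and rules were chosen with earlier results of these data known.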

Additional observations from a re-analysis of the deposited data

How the results depend on the processing

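No paired analysis was possible because each group is 1 library. The alternatives that use barcodes of 5000 to 15000 UMIs or that leave out the 33-cell cluster or keep cluster 5 were chosen after seeing the data. Of 74 alternative values of the member ratios 47 moved by less than the counting interval, 27 moved further and 0 turned a called direction. Only Cx3cr1 had a call over every retained cell, so only its 13 alternatives could have turned 1. Of the uncalled ratios, that of Ccr2 changed its direction outside the named clusters, with or without cluster 5 or the 33-cell cluster, that of Cxcr4 outside the named clusters, and that of Ccrl2 under 8 of 12 alternatives, to between 1.01 and 1.33.

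The ratio of Cx3cr1 (0.283) stayed below 0.5 under all 13 alternatives run. It was 0.256 with a stricter cell filter, 0.388 with the trimmed-mean scaling, 0.340 without mt- and ribosomal protein genes in the totals, 0.343 with equal weight per cell, 0.352 after thinning, 0.301 without the 5% of cells with most UMIs, 0.299 outside the named clusters, 0.304 there without the 33-cell cluster and 0.325 in the depth window. The ratio of Ccr2 (0.652) was 0.850, 0.894 and 0.785 under the first 3 of these, 3.05 outside the named clusters, 1.75 there without the 33-cell cluster, 1.16 there with cluster 5 kept and 0.418 in the depth window.

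The count of members called (1) was 2 with the trimmed-mean scaling, equal weight per cell, thinning, removal of Scrublet doublets or of the deepest cells, and with no minimum level. It was 3 with the stricter filter and without mt- and ribosomal protein genes, and 4 outside the named clusters, in the depth window and at a fold of 1.5. Of all genes, 18.5% were higher and 10.2% lower with the trimmed-mean scaling, and 14.4% and 15.3% without mt- and ribosomal protein genes. The shares were 10.4% and 26.2% with the stricter filter and 10.4% and 23.6% outside the named clusters. They were 7.60% and 19.1% in the depth window. With equal weight, thinning, or removal of doublets or deepest cells, 9.07% to 9.65% were higher and 20.0% to 23.9% lower. They were not computed for other minimum levels or folds. Ccr1 stood at 1.95, next to the fold of 2. The count of other receptors (6) was 3 in the depth window and at a minimum of 50 CPM, and that of signalling genes (6) was 3 at 50 CPM and 11 at a fold of 1.5.

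Ccr2 outside the named clusters was 14.7 CPM in Repop D5 (21.6) with the gene lists kept among the variable genes and 36.3 CPM in CD (7.07) at resolution 2. In the monocyte-like class it was 174 CPM in Repop D5 (268) with the lists kept and 1092 CPM in CD (698) at resolution 2. The last value rests on 5 CD cells. Scrublet marked 12 of 553 Repop D5 cells and 3 of 609 CD cells, too few in CD for its removal to be informative. Cxcr4 and most of the scarce receptors could not be compared by cluster at this depth.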
